A study of Mus musculus with 6 samples.

Results

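The subunits of the oxidative phosphorylation machinery were taken as the genes whose symbols begin as those of complex I (Nduf followed by a, b, c, s or v and a number), complex II (Sdha to Sdhd), complex III (Uqcr), complex IV (Cox4 to Cox8) and ATP synthase (Atp5). Each gene was represented by its brightest probe set, a choice that used measured signals. The rule itself used names alone, but it was chosen with earlier results of these data known. It found 81 genes among the 19938 genes with a single symbol on the array: 33 of complex I, 4 of complex II, 8 of complex III, 19 of complex IV and 17 of complex V. Ndufa4 and its relative Ndufa4l2 were placed in complex IV, where the Ndufa4 protein is known to sit. Cyc1, Cycs and Ndufab1 are not named by the rule and are described with the related genes.

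Liver RNA came from C57BL/6 mice that ate a regular diet (RD) or a high fat diet (HFD) ad libitum for 2 days, with 3 biological replicates per diet and 1 array per replicate. RD was the control diet. Each of the 6 titles includes the letters NI with no explanation, and a treatment common to both diets therefore cannot be named. The sources used here do not give the age or sex of the mice or what the diets contained.

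Oxidative phosphorylation takes place in the inner mitochondrial membrane. Complex I accepts electrons from NADH and complex II accepts them from succinate; both pass them through ubiquinone to complex III, and cytochrome c carries them on to complex IV, which reduces oxygen. Complexes I, III and IV pump protons, and complex V, the ATP synthase, lets the protons return and makes ATP. The liver oxidises much fatty acid, and its hepatocytes are rich in mitochondria. Most subunits are encoded in the nucleus, while a small set is encoded in mitochondrial DNA.

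Many nuclear subunit genes are known to be bound near their start by NRF1, a factor of respiratory genes, and by ETS family factors such as GABP. Promoters are shown here because 81 genes in separate places of the genome were compared as a set. A link between motifs and the difference between diets was not tested. RefSeq promoters of assembly GRCm38.p6, from 250 bases before to 50 after a gene's start, were available for 66 of the 81 genes. Sdhb and Ndufb10, which both fell on HFD, are printed with the bases before the start, 5′ to 3′, and capitals mark a match to the NRF1 core.

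Sdhb (GRCm38.p6, chr4:140961021-140961270, plus strand): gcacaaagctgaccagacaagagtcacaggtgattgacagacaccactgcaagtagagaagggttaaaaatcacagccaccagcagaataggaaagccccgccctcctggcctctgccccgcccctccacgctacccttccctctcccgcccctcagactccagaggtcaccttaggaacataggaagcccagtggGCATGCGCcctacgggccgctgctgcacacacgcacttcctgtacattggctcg

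Ndufb10 (GRCm38.p6, chr17:24724424-24724673, minus strand): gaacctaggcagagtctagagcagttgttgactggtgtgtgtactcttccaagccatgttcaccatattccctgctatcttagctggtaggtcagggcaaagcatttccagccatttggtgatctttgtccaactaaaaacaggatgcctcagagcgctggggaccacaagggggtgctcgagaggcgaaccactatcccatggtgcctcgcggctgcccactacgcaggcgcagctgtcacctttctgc

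The Sdhb stretch held GCATGCGC beginning 54 bases before the start, and an ETS match of this gene lay in the bases after the start, which are not printed. The Ndufb10 window held none of the motifs searched. Uqcrb, the other subunit gene that fell, had no entry in the promoter table. A further set of 40-base stretches shows how the same core sits in the promoters of Atp5g2, Cox6a1 and Ndufa6, subunit genes that did not pass the test.

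Atp5g2 (chr15:102671064-102671103, minus strand): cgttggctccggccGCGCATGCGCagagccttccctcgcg

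Cox6a1 (chr5:115349095-115349134, minus strand): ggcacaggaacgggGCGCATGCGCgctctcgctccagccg

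Ndufa6 (chr15:82354351-82354390, minus strand): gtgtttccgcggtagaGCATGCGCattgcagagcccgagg

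In Atp5g2 and Cox6a1 the core overlapped its own reverse complement, and the capitals cover both matches. Counted over both strands, the NRF1 core GCATGCGC was found in 10 of the 66 subunit genes (15.2%), against 4.29% of the 15563 genes with a window. The ETS core CCGGAAG was found in 17 (25.8%) against 13.6%. The ERRA core AAGGTCA, a site core of the oestrogen-related receptors, was found in 7 (10.6%) against 4.48%. The YY1 core ATGGCGGC was found in 6 (9.09%) against 3.74%. The 15563 genes were not matched to the subunit genes in signal or base composition. A match is a string of letters and was not tested as a binding site. None of the 5 windows of complex IV tissue isoforms and relatives held any of the 4 cores.

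Most subunit genes had slightly lower signals on HFD, and few passed the test. The median difference of HFD minus RD was -0.10 on the log2 scale (a change of -6.57%), with quartiles of -0.17 and -0.02 and a range from -0.55 to 0.17. Differences were below 0 for 69 of 81 genes (85.2%), against 50.8% of all genes tested, whose median was -0.003. Leaving out each array in turn, 61 to 70 of the 81 were below 0. In limma with Benjamini-Hochberg adjustment over all genes, 3 subunits fell (3.70%), against 2.24% of all genes, and 0 rose, against 3.11%. In this fit the share that fell is therefore near the background. At an unadjusted p under 0.05, 23 were lower (28.4%), against 8.65% of all genes, and 1, Cox7a2l, was higher, against 11.0%.

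The 3 calls rested on all arrays being present. Without RD replicate 1 only Ndufb10 was called, without RD replicate 3 only Ndufs4, and without any of the other arrays 0 were called. Centring each array on its median over all rows, or testing every row of the table, also left 0 called. Calls were lost over all genes too. Without 1 array, 178 to 273 of all genes were called lower, against 446 with all arrays. That centring left 384 lower and testing every row left 132.

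In 36 subunits (44.4%) every HFD array lay below every RD array, against 11.7% of all genes. In 2 subunits, Ndufs7 and Cox7a2l, every HFD array lay above every RD array, against 14.0% of all genes. Subunits are measured on the same 6 arrays, so these counts are not independent observations. In bulk liver, fewer cells of a type and less RNA per cell cannot be told apart.

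Of the 81 subunits, 74 had a mean signal above the median of all genes; their median difference was -0.12 and 65 were below 0 (87.8%). Among all 9969 genes above that level, the median was 0.02 (0.010 without RD replicate 1, 0.011 without HFD replicate 1 and 0.032 without HFD replicate 3) and 44.6% were below 0. In 36 of the 74 (48.6%) every HFD array lay below every RD array, against 15.6% of the 9969 genes. In the fit over all genes, 4.05% of the 74 fell, against 4.0% of the 9969. The other 7 subunits were Cox8b, Cox4i2, Cox6a2, Cox8c, Cox7b2, Ndufa4l2 and Cox6b2, all tissue isoforms or relatives of complex IV subunits.

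**Figure D1:**
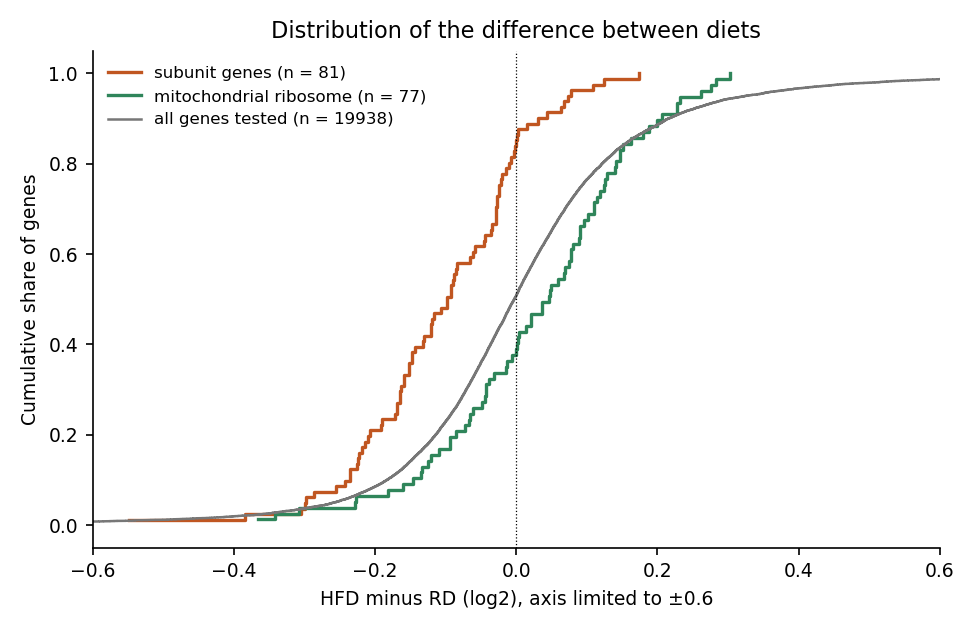
Cumulative share of genes (vertical axis) against the log2 difference HFD minus RD (horizontal axis, limited to ±0.6), for the 81 subunit genes, the 77 genes of the mitochondrial ribosome and all 19938 genes tested. The subunit curve lies to the left of the curve of all genes over most of the axis, with medians of -0.10 and -0.003, and the ribosome curve lies mostly to the right, with a median of 0.05.

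Complex I couples the oxidation of NADH to proton pumping. It had 29 of 33 measured genes below 0, a median difference of -0.09, 1 gene that fell (Ndufb10, 3.03%) and 0 that rose. Of all genes, 2.24% fell and 3.11% rose. All HFD arrays lay below all RD arrays in 13 of its genes (39.4%), against 11.7% of all genes. Ndufb10, an accessory subunit of the membrane arm, had log2 signals of 8.66, 8.94 and 8.89 on RD and 8.40, 8.48 and 8.47 on HFD. The diets did not overlap, and RD replicate 1 was the lowest of the RD arrays. The difference was -0.38 ± 0.09 (moderated SE from limma, n = 3 per diet), a change of -23.3%, with a limma adjusted p of 0.0406. Leaving out each array in turn, it stayed past the threshold in 1 of 6 fits, the one without RD replicate 1 (adjusted p = 0.0286), and reached 0.131 in another.

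The next genes of complex I by p did not pass the test. Ndufa5, an accessory subunit of the matrix arm, had 8.36, 8.51 and 8.54 on RD and 8.26, 8.11 and 8.15 on HFD. Its difference was -0.30 ± 0.08, with no overlap and a limma adjusted p of 0.0698. Ndufc1, a small membrane arm subunit, had 11.53, 11.57 and 11.60 on RD and 11.37, 11.35 and 11.31 on HFD. All its HFD arrays were lower, with a difference of -0.22 ± 0.06. Ndufv1, which carries the flavin that accepts electrons from NADH, had 11.81, 11.80 and 11.92 on RD and 11.60, 11.64 and 11.67 on HFD. Ndufs1, a large iron-sulfur subunit that takes the electrons onward, had 10.32, 10.35 and 10.46 on RD and 10.16, 10.22 and 10.08 on HFD. The diets did not overlap in either gene, and the differences were -0.21 ± 0.07 for Ndufv1 and -0.22 ± 0.07 for Ndufs1.

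Ndufs4 had the most negative difference of all 81 genes without passing the test, and is described because its value stood out after the data were seen. This accessory subunit of the matrix arm, whose loss causes a Leigh-like disease in mice, had 12.38, 12.57 and 11.85 on RD and 11.91, 11.74 and 11.51 on HFD. RD replicate 3 lay below HFD replicate 1, so the diets overlapped. Its difference was -0.55 ± 0.18 (limma adjusted p = 0.131). Without RD replicate 3 the adjusted p was 0.0272.

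At the other end, Ndufs7, the iron-sulfur subunit next to the ubiquinone site, had 13.17, 13.25 and 13.22 on RD and 13.35, 13.32 and 13.30 on HFD. Every HFD array was higher, but the difference of 0.11 ± 0.06 did not pass the test (limma adjusted p = 0.387). The 15 genes of the matrix arm had a median difference of -0.12 with 13 below 0, and the 18 of the membrane arm had a median of -0.07 (-0.112 without RD replicate 1) with 16 below 0. The difference between the arms was not tested. The 4 genes not below 0 were Ndufa1, at a difference that rounds to 0, Ndufa2, Ndufa8 and Ndufs7. Ndufs8 and Ndufa11, counted below 0, also round to 0 (-0.002 and -0.003).

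Complex II, succinate dehydrogenase, is the only complex shared with the citric acid cycle. All 4 of its genes were below 0 without overlap between the diets, with a median difference of -0.19, and Sdhb fell. Of all genes, 11.7% had every HFD array below every RD array, and 2.24% fell. Sdhb, the iron-sulfur subunit whose promoter is printed above, had 11.26, 11.36 and 11.27 on RD and 10.98, 11.02 and 11.00 on HFD. Its difference was -0.30 ± 0.06 (a change of -18.7%, limma adjusted p = 0.0339). The lowest RD array lay above the highest HFD array, yet the gene missed the threshold when any 1 of the 6 arrays was left out, with limma adjusted p up to 0.114.

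Sdha, the flavoprotein that oxidises succinate, had 12.78, 12.71 and 12.78 on RD and 12.57, 12.55 and 12.51 on HFD, a difference of -0.21 ± 0.06. Sdhd, a membrane anchor, had 11.61, 11.55 and 11.60 on RD and 11.47, 11.34 and 11.47 on HFD, a difference of -0.16 ± 0.07. Sdhc, the other anchor, had 12.35, 12.41 and 12.36 on RD and 12.26, 12.32 and 12.27 on HFD, a difference of -0.09. The limma adjusted p-values of these 3 genes were 0.0960, 0.240 and 0.477.

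Complex III passes electrons from ubiquinol to cytochrome c. It had 6 of 8 genes below 0, a median difference of -0.14 (-0.086 without RD replicate 3), 1 gene that fell (Uqcrb) and 0 that rose. Over all genes, 2.24% fell and 3.11% rose. Uqcrb, a small subunit near the ubiquinone site, had 13.05, 12.98 and 12.96 on RD and 12.63, 12.72 and 12.77 on HFD. Its difference was -0.29 ± 0.07 (a change of -18.1%) with no overlap. The limma adjusted p was 0.04997, just under the threshold, and rose above it when any 1 array was left out, up to 0.165. Its 3 probe sets gave differences of -0.29, -0.31 and -0.27.

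Uqcrh, the hinge subunit that contacts cytochrome c1, had 11.60, 11.84 and 11.62 on RD and 11.50, 11.48 and 11.45 on HFD. Uqcrfs1, the Rieske iron-sulfur protein, had 9.48, 9.69 and 9.61 on RD and 9.42, 9.46 and 9.40 on HFD. Neither passed the test, with differences of -0.21 ± 0.08 and -0.17 ± 0.07 and no overlap in either. Uqcr10, a small accessory subunit, had the highest difference of complex III at 0.08. It had 10.05, 10.26 and 10.47 on RD and 10.41, 10.25 and 10.36 on HFD, so the diets overlapped. Without RD replicate 1 its sign changed, to -0.0283.

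**Figure D2:**
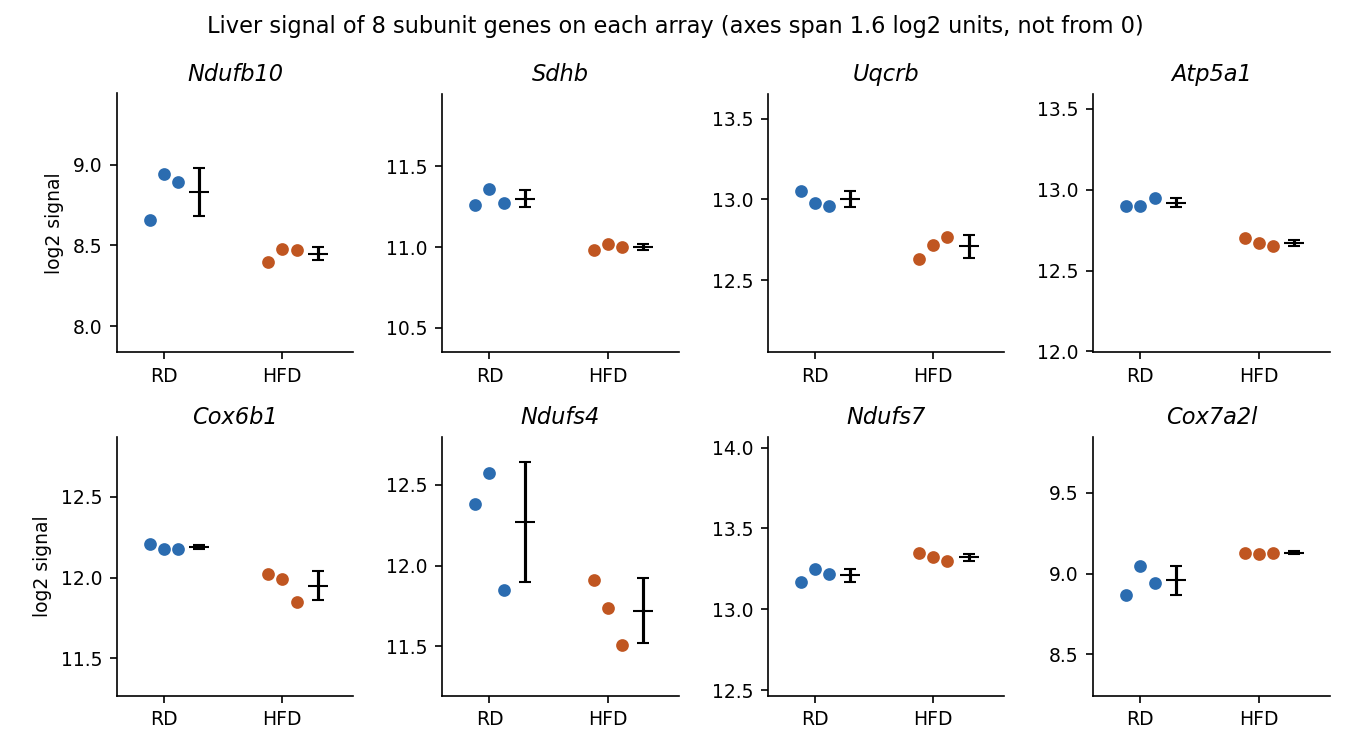
Log2 signal on each of the 3 RD and 3 HFD arrays for 8 subunit genes, as a point per array with the mean and SD of each diet in black; every panel spans 1.6 log2 units and does not start at 0. Ndufb10, Sdhb and Uqcrb passed the test and their diets did not overlap, while RD replicate 3 of Ndufs4 lay below HFD replicate 1.

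Complex IV, cytochrome c oxidase, had 14 of 19 genes below 0 and a median difference of -0.025, with 0 that fell and 0 that rose. Without 1 array its median ran from -0.068 (RD replicate 2) to -0.037 (HFD replicate 2). The complex was also divided by its known isoforms, a split made with earlier results of these data in view. The 10 general subunits were all below 0, with a median difference of -0.10, and 0 fell. In 6 of the 10, all HFD arrays lay below all RD arrays, against 11.7% of all genes. Cox6b1, which faces the intermembrane space, had 12.21, 12.18 and 12.18 on RD and 12.02, 11.99 and 11.85 on HFD. Its difference was -0.24 ± 0.07 (limma adjusted p = 0.101). Cox5b, which binds zinc, had 12.50, 12.51 and 12.48 on RD and 12.32, 12.29 and 12.41 on HFD, a difference of -0.16 ± 0.06.

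Cox7b and Cox7a2 are small membrane subunits. Cox7b had 13.40, 13.41 and 13.40 on RD and 13.33, 13.23 and 13.29 on HFD. Cox7a2 had 11.12, 11.20 and 11.15 on RD and 11.07, 10.99 and 11.07 on HFD. Their differences were -0.12 ± 0.06 each, and neither passed the test although the diets did not overlap.

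The other 9 complex IV genes are isoforms of muscle, testis or lung and relatives of the general subunits. Only 4 were below 0, their median difference was 0.03 (0.050 without HFD replicate 2, 0.006 without HFD replicate 3), and 0 passed the test. Cox7a2l, a relative of Cox7a2, had 8.87, 9.05 and 8.94 on RD and 9.13, 9.12 and 9.13 on HFD. All its HFD arrays were higher, with a difference of 0.17 ± 0.07 and a limma adjusted p of 0.213. Its second probe set gave 0.16.

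The remaining isoforms overlapped between the diets. Among the muscle isoforms, Cox6a2 had 7.47, 7.43 and 7.33 on RD and 7.44, 7.35 and 7.36 on HFD. Cox7a1 had 7.88, 8.04 and 8.04 on RD and 8.12, 8.09 and 7.97 on HFD. Cox8b had 6.32, 6.43 and 6.67 on RD and 6.42, 6.39 and 6.36 on HFD. No diet was set apart in any of these 3 genes.

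Among the isoforms of testis, Cox6b2 had 6.72, 6.70 and 7.12 on RD and 6.88, 6.83 and 7.21 on HFD. Cox7b2 had 4.60, 4.59 and 4.62 on RD and 4.62, 4.59 and 4.68 on HFD. Cox8c had 7.12, 6.85 and 7.08 on RD and 6.94, 7.21 and 6.88 on HFD. The lung isoform Cox4i2 and Ndufa4l2, a relative of Ndufa4 known for its induction by low oxygen, completed the set. Cox4i2 had 6.94, 6.72 and 6.75 on RD and 6.71, 6.80 and 6.82 on HFD. Ndufa4l2 had 6.61, 6.93 and 6.73 on RD and 6.76, 6.73 and 7.00 on HFD. Detection calls were not used here, so it is not known which of these isoforms exceed the background of the array.

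Complex V makes ATP with a catalytic F1 head and a membrane Fo part. It had 16 of 17 genes below 0 and a median difference of -0.15 (-0.094 without HFD replicate 2), but 0 passed the test. In 9 genes (52.9%) every HFD array lay below every RD array, against 11.7% of all genes. The 5 genes of the F1 head were all below 0, though Atp5d, at -0.001, rounds to 0. Their median was -0.17, and the 12 of Fo and the stalk had a median of -0.13 with 11 below 0. Atp5a1, the alpha subunit, had 12.90, 12.90 and 12.95 on RD and 12.70, 12.67 and 12.65 on HFD. Its difference was -0.24 ± 0.06 (limma adjusted p = 0.0595). Atp5e, the epsilon subunit, had 9.89, 9.76 and 9.58 on RD and 9.47, 9.42 and 9.56 on HFD, a difference of -0.25 ± 0.09. Both genes lacked overlap. Atp5b, the catalytic beta subunit, differed by -0.06.

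The genes of Fo and the stalk ranged from -0.31 (Atp5mpl) to 0.00 (Atp5g2), with Atp5o at -0.03, Atp5j at -0.06, Atp5h at -0.09 and Atp5j2 at -0.10. Atp5mpl, a small proteolipid, had 10.81, 11.04 and 10.76 on RD and 10.59, 10.47 and 10.64 on HFD, a difference of -0.31 ± 0.09. Atp5md, a subunit known to hold ATP synthase dimers, had 12.74, 12.78 and 12.72 on RD and 12.64, 12.47 and 12.43 on HFD, a difference of -0.24 ± 0.07. All 3 probe sets of Atp5md lay between -0.25 and -0.24. The 6 probe sets of Atp5l, a further membrane subunit, ran from -0.27 to -0.19.

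Subunit c forms the rotating ring and is encoded by Atp5g1, Atp5g2 and Atp5g3, which give the same mature protein. The 3 genes differed in their values. Atp5g3 had 13.05, 13.12 and 13.07 on RD and 12.84, 12.82 and 12.90 on HFD, a difference of -0.22 ± 0.06 (limma adjusted p = 0.0871). Atp5g1 had 13.14, 13.26 and 13.19 on RD and 13.11, 13.09 and 13.10 on HFD, a difference of -0.10. Atp5g2 had 12.75, 12.75 and 12.66 on RD and 12.75, 12.68 and 12.74 on HFD, a difference of 0.00. None passed the test, and the difference between the genes was not tested.

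**Figure D3:**
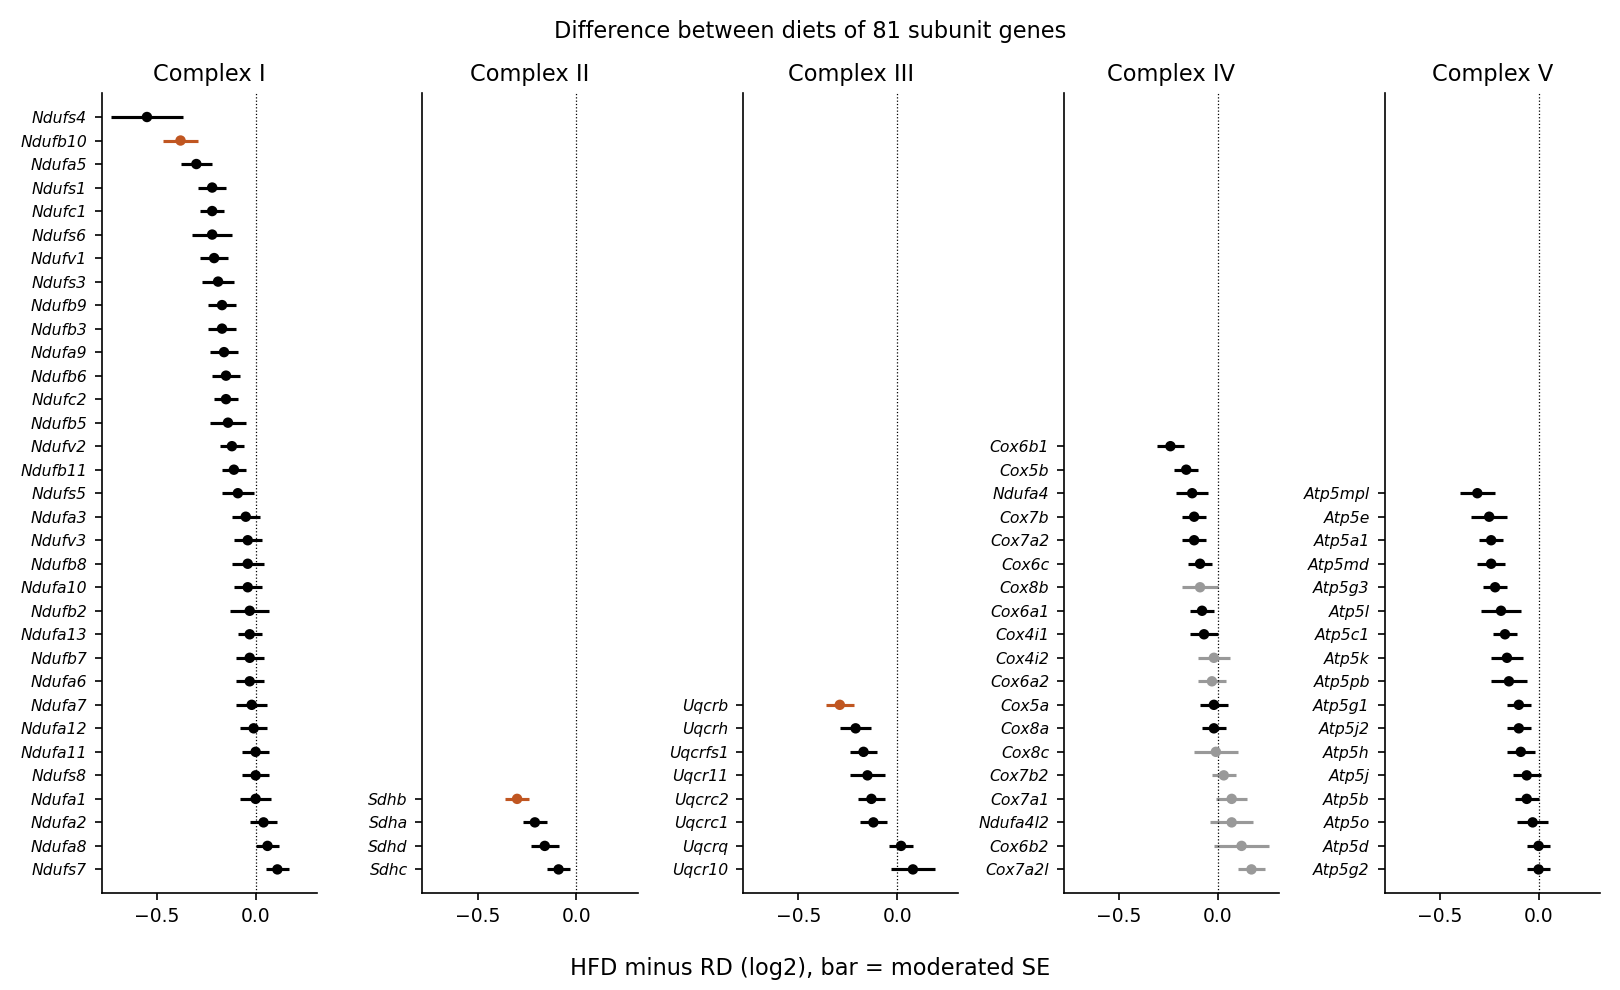
Log2 difference HFD minus RD of each of the 81 subunits by complex; bars are the moderated SE from limma. Orange marks Ndufb10, Sdhb and Uqcrb, which passed the test, and grey marks the 9 complex IV isoforms and relatives, which spread around 0 while 65 of the other 72 genes lie below it.

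Each gene was then centred on its own mean over the 6 arrays. The median over the 81 genes was 0.02, 0.07 and 0.06 on RD replicates 1 to 3 and -0.03, -0.09 and -0.04 on HFD replicates 1 to 3. All RD arrays were above all HFD arrays. In complex II the values were 0.11, 0.07 and 0.10 on RD and -0.08, -0.11 and -0.10 on HFD. In the complex IV isoforms and relatives they were -0.11, 0.00 and 0.00 on RD and -0.01, -0.02 and 0.03 on HFD, which overlap. HFD replicate 2 was the lowest array over all 81 genes. On the first principal component (51.4% of the variance over all genes), HFD replicate 1 lay farthest from RD at 21.5, while HFD replicates 2 and 3 lay at 12.7 and 12.6. Without it the median difference of the subunits was -0.10.

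**Figure D4:**
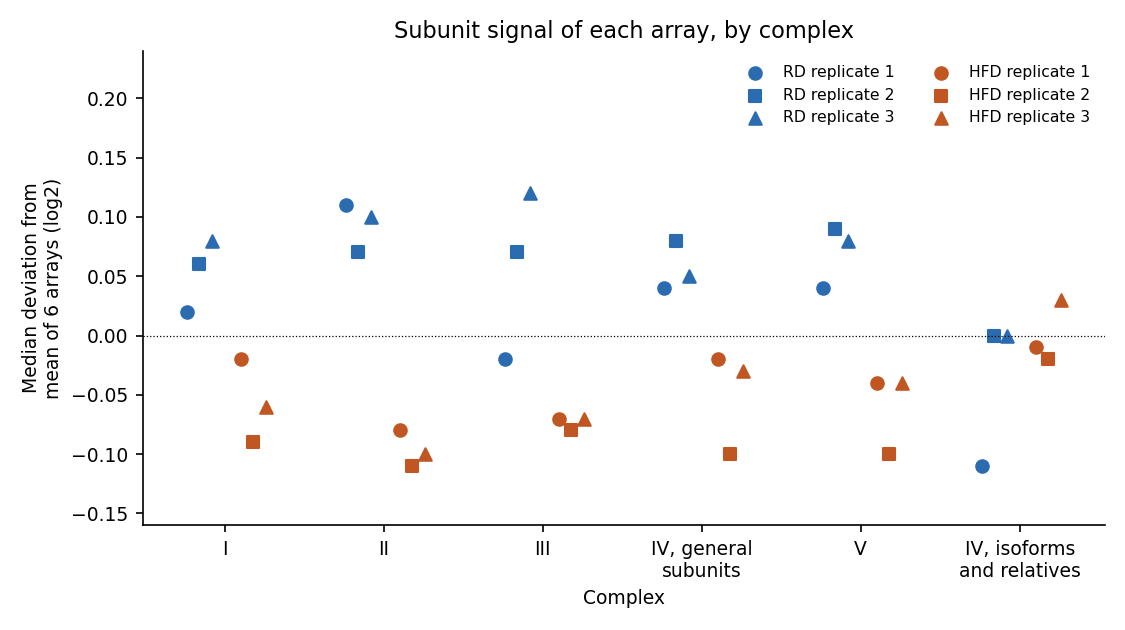
Median deviation of the genes of each complex from their own mean on each of the 6 arrays, in log2 units, with a point per array. RD arrays lie above HFD arrays for complexes I, II, III and V and the general subunits of complex IV, and overlap with them for the complex IV isoforms and relatives.

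Cell type markers were checked on the same arrays. Of the hepatocyte markers, 0 of 7 passed the test, and their mean log2 signal was 14.16 on every RD array and 14.12 to 14.15 on HFD. In 3 of the 7 (Tat, Cps1 and Cyp2e1, 42.9%) every HFD array lay below every RD array. That share was 11.7% for all genes and 44.4% for the subunits. The differences of these 3 genes were -0.13, -0.05 and -0.04. The median difference of the 7 markers was -0.008, against -0.098 for the subunits. The signals of these markers lie close to the highest value of the table, 14.86, and saturation was not tested. Of all genes tested, 3.11% rose. Kupffer cell markers rose in 5 of 10 genes (Cd5l, Timd4, C1qb, Adgre1 and Marco), with a median difference of 0.56. The mean signal of the 10 was 9.90 to 9.96 on RD and 10.24 to 10.78 on HFD. Leaving out each array in turn, Cd5l was called in 6 of 6 fits, Timd4 in 4, and C1qb, Adgre1 and Marco in 2. All 5 of 5 cholangiocyte markers rose (Epcam, Krt19, Sox9, Krt7 and Cftr), with mean signals of 6.85 to 6.93 on RD and 7.26 to 7.44 on HFD; Epcam was called in 3 of 6 such fits, Krt19 in 1, and Sox9, Krt7 and Cftr in 0. Of the monocyte and neutrophil, lymphocyte, sinusoidal endothelium, stellate cell, erythroid and adipocyte markers, 0 were called. No array value is a true 0 on this scale. The deviations of the Kupffer markers were 0.56, 0.04 and 0.24 on HFD replicates 1 to 3, and those of the cholangiocyte markers were 0.26, 0.19 and 0.15. The part of these cells in the subunit differences was not tested. Striated muscle markers, which share tissue with several isoforms, had 0 of 7 called and mean signals of 6.28 to 6.38 on RD and 6.31 to 6.39 on HFD.

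Genes around the complexes are given by list, with counts and medians. Differences between lists were not tested. Over all genes tested, 50.8% were below 0, 2.24% fell and 3.11% rose. In 11.7% every HFD array lay below every RD array. The 7 other genes of electron transport were all below 0, with a median of -0.15, and 1 fell. That gene, Cycs, is cytochrome c, with a difference of -0.30 ± 0.06 (limma adjusted p = 0.0373). Etfdh and Cyc1 did not pass, at -0.17 and -0.15. Cyct, also counted, had signals of 3.91 to 4.14, below the array medians of 7.06 to 7.11. Of the subunits encoded in mitochondrial DNA, 2 had a named probe set: ND3 at -0.15 and COX2 at -0.06, both without overlap and neither called (median -0.11, or -0.066 without HFD replicate 3).

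Among assembly factors of complexes I and II, 13 of 17 were below 0 (median -0.11, or -0.064 without RD replicate 2) and 1 fell: Ndufaf1, a complex I assembly factor, at -0.43 ± 0.09 (limma adjusted p = 0.0284). Ndufaf7 and Foxred1, both at -0.27, did not pass. Of 29 assembly factors of complexes III, IV and V, 17 were below 0 (median -0.03), with Cox11 lower and Coa3 higher. Cox11, which delivers copper to complex IV, fell by 0.30 (limma adjusted p = 0.0340), while Coa3, which acts on the Cox1 subunit, rose by 0.37 (limma adjusted p = 0.0468). Cox10 did not pass, at -0.26.

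In coenzyme Q synthesis, 9 of 12 genes were below 0 (median -0.07), and Coq10a, a coenzyme Q binding protein, fell by 0.32 (limma adjusted p = 0.0353). Coq3 and Coq4, at -0.25 and -0.22, did not pass. Of 17 regulators of respiratory genes, 11 were below 0 (median -0.06) and 1 fell: Ppara, the nuclear receptor of fatty acid oxidation genes, at -0.30 ± 0.07 (limma adjusted p = 0.0392). The coactivator gene Ppargc1b differed by -0.49 ± 0.16 and Polg, the mitochondrial DNA polymerase, by -0.22, and neither passed. The genes of the factors whose motifs were searched did not pass the test: Nrf1 differed by 0.04, Gabpa by -0.02, Esrra by -0.06 and Yy1 by -0.24. Esrrg, a further oestrogen-related receptor, differed by -0.26 with no overlap and did not pass either (limma adjusted p = 0.135).

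Of 17 genes of the citric acid cycle and pyruvate dehydrogenase, 14 were below 0 (median -0.08) and 1 fell: Fh1, fumarate hydratase, at -0.45 ± 0.08 (limma adjusted p = 0.0155), still called in 4 of 6 fits that left out an array. Idh3a and Dlst, at -0.30 and -0.23, did not pass. Of 11 uncoupling and carrier genes, 7 were below 0 (median -0.07, or -0.046 without RD replicate 3) and 0 passed. Vdac1 differed by -0.19 and Vdac2 and Ucp1 by -0.17 each. Signals of Ucp1 ran from 5.59 to 5.98, below the array medians of 7.06 to 7.11. Of 21 import and folding genes, 16 were below 0 (median -0.06) and 0 passed, with Tomm20 at 0.32, Tomm5 at -0.29 and Tomm70a at -0.22. That median was -0.009 without RD replicate 2 (11 of 21 below 0), -0.037 without RD replicate 3 and -0.099 without RD replicate 1.

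The mitochondrial ribosome, which translates the subunits encoded in mitochondrial DNA, had 30 of 77 genes below 0 and a median of 0.05. Without RD replicate 1 or without HFD replicate 1, 36 were below 0 and the median was 0.007 and 0.008; with median centring it was 0.02. Mrpl15 fell by 0.34 (limma adjusted p = 0.0215), Mrps22 rose by 0.28 (limma adjusted p = 0.0478), and Mrpl14, at 0.28, did not pass. The difference between these genes and the subunits was not tested. Leaving out each array in turn, Ndufaf1 was called in 1 of 6 fits, and Cycs, Cox11, Coa3, Coq10a, Ppara, Mrpl15 and Mrps22 in 0 of 6.

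**Figure D5:**
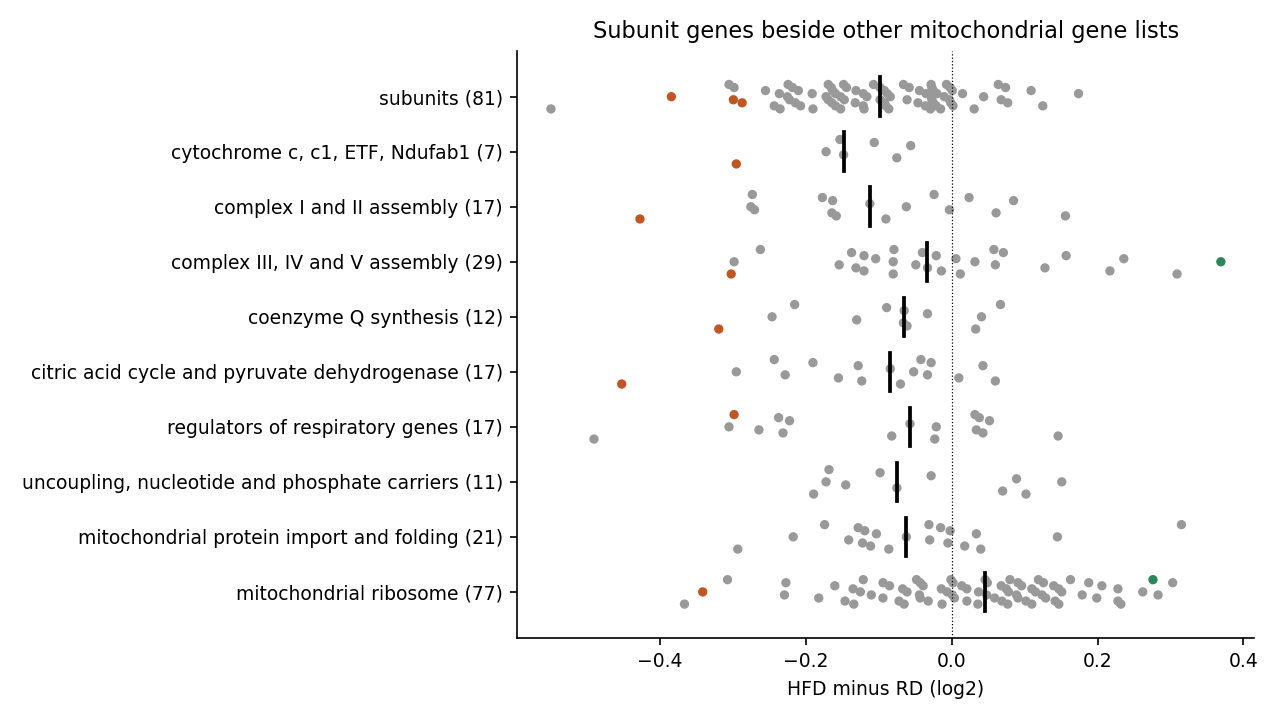
Log2 difference HFD minus RD of the 81 subunits and of 9 other mitochondrial lists (without the 2 genes of mitochondrial DNA), with a point per gene and a black line at the median; orange points fell and green points rose. Medians lie at -0.10 for the subunits, from -0.15 to -0.03 for 8 of the other lists, and at 0.05 for the mitochondrial ribosome.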

How the data were processed

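Liver RNA of 6 mouse samples was measured on GeneChip arrays. The authors deposited 1 log2 value per probe set and array (35512 rows), with summarisation and normalization not given in the sources used here; the range implies logs to base 2, since values run from 2.28 to 14.86. Array medians of 7.06 to 7.11 were kept. Probe sets with 1 symbol in the platform annotation were used, the brightest per gene over all 6 arrays, which left 19938 genes; the 81 subunits came from 105 probe sets. Dim probe sets were kept. The fit used limma 3.58.1 under R 4.3.3, with diet as the single term and two-sided tests. Calls needed a Benjamini-Hochberg adjusted p under 0.05 across the whole set of genes. The script was tested on simulated data. P-values compare the difference with the variation between 3 biological replicates per diet. The variance of each gene was moderated by limma towards that of all genes. Values after ± are the moderated SE and not the spread of the replicates alone. The number of arrays limits the precision.

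The members and lists were chosen with earlier results of these data known. Named were the genes past the threshold, the 5 (complexes I, IV and V) or 3 (II and III) of smallest p, the highest difference of each complex, the complex IV isoforms, the subunit c genes and, of other lists, up to 3 of smallest p. Promoter sequences came from RefSeq GRCm38.p6. Alternatives covered centring, quantile normalization, dim genes, probe set choice, the prior, array weights, a replicate block and leaving out each array.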

Additional observations from a re-analysis of the deposited data

How the results depend on the processing

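The count of subunits that fell depended on the setting, and the direction of the median did not. In the fit as reported 3 fell, against 446 of all 19938 genes. With quantile normalization 5 fell (506 of all genes) and with median centring 5 (514), with Ndufa5 and Atp5a1 added in both. Array weights gave 2 (475 of all genes), Sdhb and Uqcrb, with Ndufb10 lost. Among brighter genes only, 9 of 74 fell, against 619 of all 9969. An intensity trend and robust prior gave 10 (615 of all genes). Testing every row of the table gave 0 (132 of all genes). Centring over all rows, an alternative chosen after seeing the data, also gave 0 (384 of all genes). That centring moved calls over all genes to 65.4% higher from 58.2%. Leaving out each array gave 0 to 1 (178 to 273 of all genes). Correlations of same-numbered deviations were -0.11, 7.2e-05 and 0.12. With 3 arrays per diet these cannot decide whether the replicate numbers pair the samples. With the numbers as a replicate block 0 fell, with 245 genes lower and 318 higher in all, against 446 and 621. Subunits with every HFD array higher numbered 4 with centring over all rows and 2 to 4 without an array, against 2. The median of complex II was -0.208 with median centring and -0.166 with centring over all rows, against -0.187. Without an array, the median of complex III ran from -0.167 to -0.086, of complex IV from -0.068 to -0.037 (against -0.025) and of complex V from -0.15 to -0.094 (against -0.152). Complex IV was -0.087 among brighter genes and -0.103 without tissue isoforms, both of which remove most isoforms; the latter was chosen after seeing the data. Of the genes named, only uncalled differences near 0 changed sign: Atp5g2 (-0.020 with median centring, -0.011 with array weights), Cox4i2 (0.0001 with quantile normalization) and Cox8c (0.0112 with quantile normalization, 0.0141 with centring over all rows, 0.0247 with array weights). Without an array, Uqcr10 ran from -0.0283 to 0.1822, Atp5g2 from -0.0290 to 0.0223, Ndufa4l2 from -0.0121 to 0.1593, Cox6a2 from -0.0638 to 0.0047, Cox8b from -0.1636 to 0.0123, Cox4i2 from -0.0685 to 0.0463 and Cox8c from -0.1064 to 0.0576. The cause of these changes was not tested.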

Other observations

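Probe sets shared by a subunit gene and a close copy were left out of the counts, and 6 such probe sets have a symbol that fits the rule. The 3 probe sets of Cox7c and Gm12338 differed by -0.07, -0.06 and -0.07 (HFD minus RD, log2). The probe set of Ndufs5 and Ndufs5-ps had 8.71, 8.62 and 8.81 on RD and 8.54, 8.55 and 8.49 on HFD, a difference of -0.19 without overlap. Both probe sets of Ndufb4 and Ndufb4b differed by -0.09. These values cannot be assigned to the subunit gene or its copy.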
